A study of Mus musculus with 18 samples.

Results

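Deletion of Map3k12 without nerve injury was examined in whole mouse retinas from eyes whose optic nerve had not been crushed. Map3k12 encodes dual leucine zipper kinase (DLK). The comparison took every uncrushed retina by its treatment label, 5 Cre-positive against 4 Cre-negative arrays, which is 9 of the 18 arrays in the series. A further array, uncrushed by title and crushed by description, was left out. All mice carried floxed Map3k12 alleles and received tamoxifen at 10 to 12 weeks of age. Cre-positive mice also carried a Cre recombinase fused to an estrogen receptor (Cre-ERT) under the widely active CAG promoter, and Cre-negative littermates lacked it. Tissue was taken 3 days after crush of a nerve, with the uninjured eye as the control eye, so the animals themselves were not uninjured. Per the labels, most but not all DLK was lost from the retina, and the remainder varied between animals. Every Cre-positive retina differed from the Cre-negative ones by the transgene as well as by the deletion, so the effects of Cre and of DLK loss cannot be told apart. Nothing in the labels states that each sample was a different animal. The p-values therefore speak of the variation among these samples, which may be technical.

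DLK is a kinase at the head of a cascade that passes through MAP2K4 and MAP2K7 to the JNK kinases and their nuclear target Jun. In neurons it is carried in axons and is best known for relaying axon damage to the cell body. After optic nerve injury the retinal ganglion cells, whose axons form the nerve, use this relay to start both regenerative and death programmes. What the cascade does in an adult retina with an intact nerve is the question this comparison addresses.

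Each array set Cy5-labelled retinal RNA against a Cy3-labelled mouse reference RNA, and levels are given as the log2 Cy5/Cy3 ratio, where 0 equals the reference. Cy5 was well above background for 68.1% to 75.5% of probes on the 9 arrays, and no spot was saturated (0 on each). Pearson's r across genes was 0.982 to 0.994 between Cre-positive arrays, 0.992 to 0.996 between Cre-negative arrays and 0.982 to 0.995 between genotypes, which describes the arrays only, since genes are not independent replicates. The tissue carried its defining markers: the mean over 19 rod genes was 6.08 to 6.26 on Cre-positive and 6.09 to 6.14 on Cre-negative arrays. Genes of the cornea, iris and ciliary body, which are not retinal, stood apart on Cre-positive replicate 4, with a mean of -0.73 over 17 genes. Replicate 2 was at -1.60, and the other Cre-positive arrays were between -1.96 and -1.82, against -1.97 to -1.87 on Cre-negative arrays. Genotype and place on the slide were also largely aligned, since 4 of 5 Cre-positive retinas sat at position 1 and 3 of 4 Cre-negative ones at position 3.

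Map3k12 itself was lower with Cre. Its single probe read 2.17, 1.77, 2.04, 1.90 and 2.11 on the Cre-positive arrays and 2.40, 2.51, 2.21 and 2.58 on the Cre-negative arrays. Every Cre-positive array lay below every Cre-negative one. The limma difference of the group means (n = 5 and n = 4, SD 0.16 in each) was -0.43 (SE 0.11), or 74.3% of the Cre-negative level. A two-sided exact permutation test of the arrays gave p = 0.0079, the smallest value these group sizes allow. In the limma fit over all genes it did not pass, with an adjusted p = 0.88 and an unadjusted p = 0.00095. The difference was -0.34, -0.82 and -0.29 on the 3 slides that held a retina of each genotype. Whether the probe lies in the deleted exon is not given in the sources used here, so this value does not measure the functional transcript that remained.

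No measured neighbour of Map3k12 passed. Of its 10 nearest neighbours in the RefSeq gene order, 5 were measured, with 0 calls in limma. Pcbp2, an RNA-binding protein gene, gave -0.16 (SE 0.09), Prr13 -0.05, Tarbp2, a partner of the Dicer enzyme, -0.02, Npff, a neuropeptide gene, 0.03, and Amhr2, a hormone receptor gene, 0.08. None of these values had an unadjusted p under 0.05, as the smallest was 0.099 for Pcbp2 in limma. Another Pcbp2 probe, well above background on every uncrushed array and not in the limma fit, differed by -0.15 (exact permutation p = 0.016).

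Across the transcriptome 3 genes differed between uncrushed genotypes, all higher with Cre. They were 0.0118% of the 25359 genes tested at a limma adjusted p of 0.05, and 0 were lower. At an unadjusted p of 0.05, 1413 genes (5.57%) differed in limma, of which 837 (3.3%) were higher and 576 (2.27%) lower. The same Cre contrast in crushed retinas, on 8 other arrays, called 299 genes (1.18%), 158 higher (0.623%) and 141 lower (0.556%). Crushed and uncrushed retinas may be eyes of the same animals, which the labels do not state. The fit treated all arrays as independent, so a match between the contrasts is not a separate replication. The difference between the contrasts was itself called for 106 genes (0.418%).

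**Figure D1:**
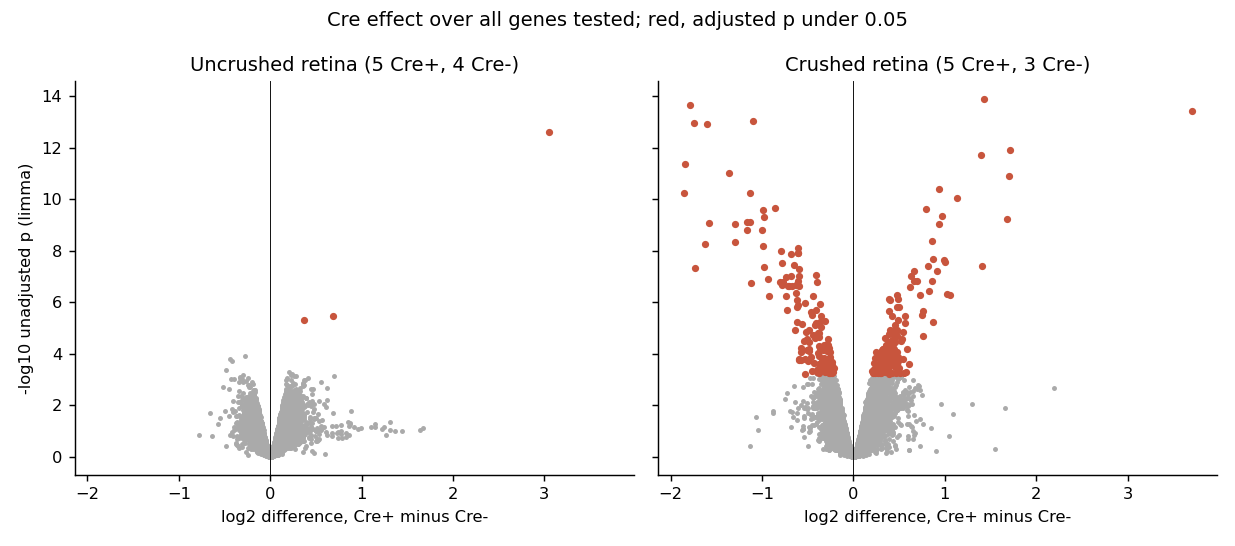
Each point is a gene, with the log2 difference between Cre-positive and Cre-negative retinas on the horizontal axis and the -log10 unadjusted limma p on the vertical axis, on the same scales for uncrushed and crushed retinas. Red points passed an adjusted p of 0.05, which 3 genes did in uncrushed and 299 in crushed retinas.

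The small count came with narrow errors for most genes. The median standard error of a difference was 0.07 on the log2 scale, and the 95% interval lay within a 1.5-fold change in either direction for 24885 genes (98.1%). It lay within a 2-fold change for 25267 genes. The median absolute difference was 0.05 in uncrushed and 0.07 in crushed retinas. These are intervals for single genes and do not show that small differences were absent. They apply to ratios after a background correction that shrinks the ratios of dim spots, so part of their narrowness may come from that step. For example, the difference of Esr1, described below, was 3.05 here and 3.91 with a smaller correction offset of 16. The intervals also refer to RNA of the whole retina and not to any single cell type.

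Esr1, the estrogen receptor alpha gene, had the largest difference. Its brightest probe read 1.80, 2.90, 2.42, 2.35 and 2.27 on Cre-positive arrays and -0.50, -0.67, -0.84 and -0.79 on Cre-negative arrays, so the groups were far apart. The difference was 3.05 (SE 0.16, limma adjusted p = 6.0e-09; exact permutation p = 0.0079). On Cre-negative arrays this probe did not rise well above background (0 of 4 arrays), and with Cre its Cy5 signal was at least 9.75-fold higher. That bound sets the bright group's mean Cy5 level against the lowest level counted as well above background. Of the other Esr1 probes, one near background differed by 0.14 (exact permutation p = 0.048) and another, well above background on every array, by -0.01 (exact permutation p = 0.89). The ligand-binding part of an estrogen receptor belongs to the Cre-ERT protein, and whether the responding probe reads the transgene was not tested. Among the other 15 estrogen receptor genes and targets measured, 0 passed in limma and 0 had an unadjusted p under 0.05. Their differences ran from -0.15 for the coactivator Ncoa3 to 0.11 for Esrrg, with the classical targets Pgr at -0.08 and Greb1 at 0.02. Another Ncoa3 probe, well above background on every uncrushed array, differed by 0.004 (exact permutation p = 0.95).

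Lmod3 encodes leiomodin 3, which nucleates actin filaments in muscle. It read 0.69, 0.72, 0.59, 0.67 and 0.67 with Cre and 0.29, 0.38, 0.30 and 0.22 without, and the groups did not overlap. The difference was 0.37 (SE 0.06, limma adjusted p = 0.040), and 0.27 in crushed retinas (limma adjusted p = 0.043). Of 8 skeletal muscle genes 0 passed in limma, with a median of 0.02. At an unadjusted limma p under 0.05 there was 1 (12.5%, against 5.57% of all genes). The third call, probe A_66_P110646, has no gene symbol and carries the transcript identifier ENSMUST00000150540. It differed by 0.69 (SE 0.10, limma adjusted p = 0.040), was not well above background on any Cre-negative array, and its Cy5 signal with Cre was at least 1.62-fold higher. In crushed retinas it differed by 0.75 (limma adjusted p = 0.00083). Both calls depended on the settings: Lmod3 lost its call in 20 of 29 alternative analyses and the unnamed probe in 15 of 28. Leaving out any 1 of the 9 arrays left 1 or 2 called genes.

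**Figure D2:**
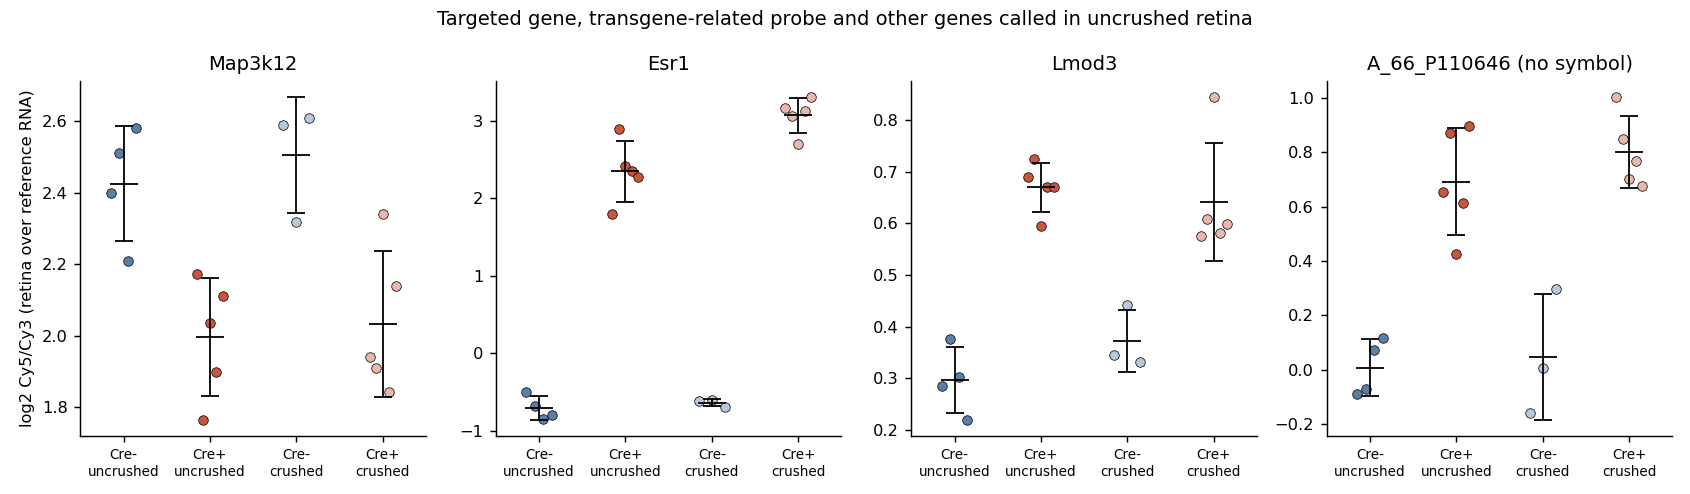
Log2 Cy5/Cy3 on every array for Map3k12, Esr1, Lmod3 and the unnamed probe A_66_P110646, with crushed retinas in paler colours and bars for mean and SD. In uncrushed retinas the genotypes did not overlap for any of the 4 probes, with Map3k12 lower and the other three higher in Cre-positive retinas.

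Genes of the cascade around DLK had small differences, none of which passed. Of 27 genes of the DLK and JNK cascade 0 passed in limma, with a median difference of -0.03 against 0.01 over all genes. Of the 27, 1, Map3k12, had an unadjusted limma p under 0.05 (3.7%, against 5.57% of all genes). Map3k13, the gene of the closely related kinase LZK, read 0.24 to 0.47 with Cre and 0.26 to 0.44 without, and differed by 0.02 (SE 0.07). The JNK genes Mapk8, Mapk9 and Mapk10 gave -0.09, -0.04 and -0.02. The kinases between DLK and JNK, Map2k4 and Map2k7, gave -0.02 and -0.05, and the scaffold Mapk8ip1 gave 0.18. Mycbp2 and Fbxo45, whose products form the ubiquitin ligase that limits DLK protein, gave 0.05 and 0.02.

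Nuclear targets at the end of the cascade did not pass either. Jun read -2.23 to -1.28 with Cre and -2.01 to -1.59 without, a difference of -0.004 (SE 0.19), so its interval was wide. Over 17 AP-1 and JNK-regulated factors the median was -0.004, with 0 passing in limma. At an unadjusted limma p under 0.05 there was 1 (5.88%, against 5.57% of all genes). Among 15 immediate early genes, which follow neuronal activity, none passed (0 of 15 in limma). At an unadjusted limma p under 0.05 there were 3 (20%, against 5.57% of all genes). Those 3 were Egr4, lower at -0.66 (SE 0.26), and Ier3 and Junb, higher at 0.15 and 0.19. Nr4a1 (-0.57), Fos (-0.36) and Klf4 (0.32) did not reach that p. Within the 3 slides Egr4 differed by -1.75, -0.36 and 0.39, so the slides did not share a direction.

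Several axon injury genes that were called lower with Cre after crush had small differences, without a call, while the nerve was intact. Sox11, which encodes a transcription factor that neurons use in development and again after injury, read -0.89, -1.08, -0.99, -1.26 and -1.11 with Cre and -1.03, -1.05, -1.01 and -0.99 without. The groups overlapped, and the difference was -0.05 (SE 0.10), against -1.84 in crushed retinas. The stress factor genes Atf3 and Ddit3 gave -0.07 and -0.04, against -1.17 and -0.73 after crush. Ecel1, a membrane peptidase of injured neurons, gave -0.23 (SE 0.14), with Cre-positive arrays at 0.69 to 0.97 and Cre-negative arrays at 0.93 to 1.15. For these 4 genes the test of the difference between the crushed and the uncrushed contrast passed in limma, with adjusted p from 2.8e-06 for Sox11 to 0.0055 for Ddit3.

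Sprr1a, a cornified envelope gene that neurons switch on after axotomy, gave 0.48 (limma adjusted p = 0.88). It read -2.02 on Cre-positive replicate 4 and -3.17 to -2.89 on the other Cre-positive arrays, against -3.48 to -3.05 without Cre. That array is the one with high cornea genes, and the part of this in the Sprr1a value was not tested. Of 32 axon injury and regeneration genes 0 passed in limma, with 3 higher and 1 lower at an unadjusted p of 0.05 (12.5%, against 5.57% of all genes). The lower one was the neurotrophin gene Bdnf, at -0.29 (SE 0.09), against -0.51 in crushed retinas (limma adjusted p = 0.011). Gap43, a growth cone protein gene, gave 0.15 (SE 0.09).

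The integrated stress response, in which phosphorylated eIF2 leads through ATF4 to amino acid and chaperone genes, showed no call in 29 genes (0 in limma). Its median was 0.04, with 4 higher and 0 lower at an unadjusted limma p of 0.05 (13.8%, against 5.57% of all genes). The secreted factor gene Gdf15 read -3.33, -3.48, -3.33, -3.46 and -3.56 with Cre and -3.56, -3.61, -3.73 and -3.62 without, a difference of 0.20 (SE 0.06). The other higher members were Atf5 (0.21), Mthfd2 (0.18) and Slc7a3 (0.18). All 4 were lower with Cre after crush, at -0.85, -0.74, -0.48 and -0.56, and for each the contrasts differed in limma (adjusted p from 2.8e-06 to 0.0044). In crushed retinas 13 of the 29 genes were called lower.

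**Figure D3:**
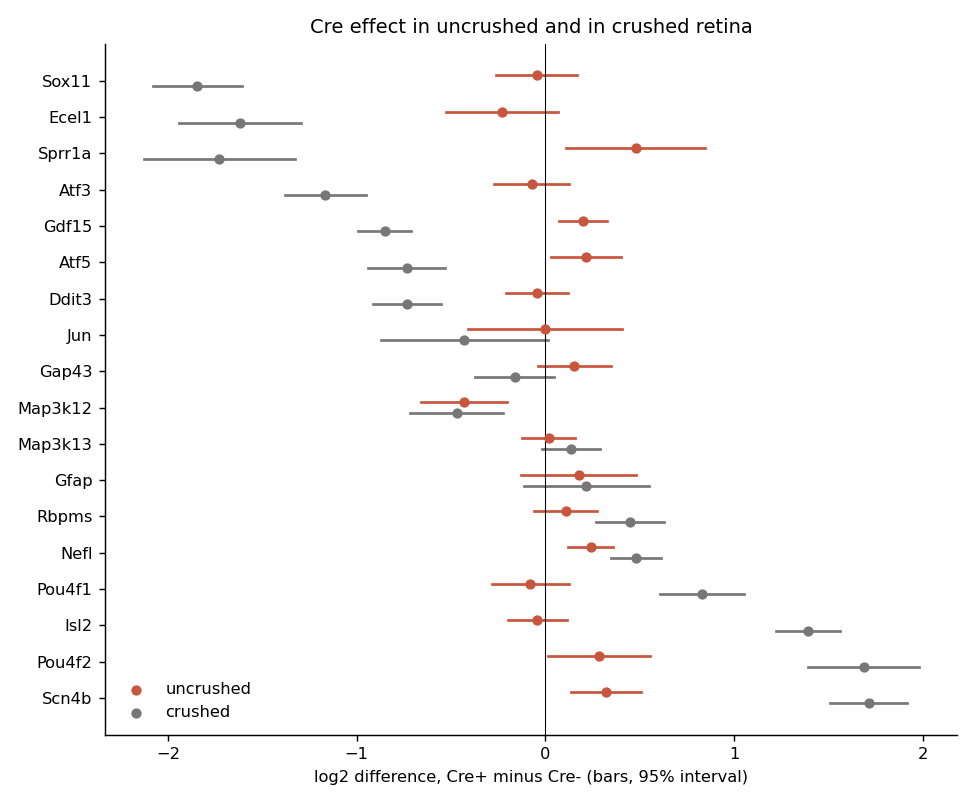
Log2 differences between Cre-positive and Cre-negative retinas with 95% intervals for 18 genes of injury, DLK signalling, glia and ganglion cells, in uncrushed (red) and crushed (grey) retinas. Sox11 sits at -0.05 in uncrushed and -1.84 in crushed retinas and Scn4b at 0.32 and 1.71, while Map3k12 sits at -0.43 and -0.47.

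No ganglion cell gene was called. Of 25 markers 20 had a positive difference, against 53.6% of all genes, and the median was 0.10. At an unadjusted p of 0.05, 7 were higher and 0 lower (0 passed in limma), against 3.3% of all genes higher. The list mean was 2.93 to 3.03 on Cre-positive and 2.82 to 2.90 on Cre-negative arrays. In whole retina, more cells of a type and more RNA per cell cannot be told apart. The neurofilament gene Nefl read 6.63, 6.81, 6.55, 6.73 and 6.60 with Cre and 6.44, 6.38, 6.40 and 6.50 without, and the groups did not overlap. Its difference was 0.24 (SE 0.06, limma adjusted p = 0.88), and 0.48 after crush (limma adjusted p = 0.00018).

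Nefm (0.23), Nefh (0.18), the intermediate filament gene Prph (0.26) and the sodium channel subunit gene Scn4b (0.32) had values of the same sign. Pou4f2, a transcription factor that defines ganglion cells, gave 0.28, but its Cre-negative arrays ranged from 4.06 to 4.97 around Cre-positive values of 4.55 to 4.86. The related Pou4f1 gave -0.08, Isl2 -0.04, Rbpms 0.11, Thy1 0.10 and Sncg 0.08. After crush Pou4f1, Pou4f2 and Isl2 were called higher with Cre, by 0.83, 1.69 and 1.39 on the log2 scale. Within the 3 slides the median over the ganglion cell markers was 0.05, 0.08 and 0.08.

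Markers of the other retinal cells had medians near that of all genes. They were 0.05 for 19 rod genes, 0.06 for 12 cone genes, 0.04 for 16 bipolar genes, -0.01 for 15 amacrine genes, 0.03 for 6 horizontal cell genes and 0.07 for 17 Müller glia genes, with 0 calls in limma. At an unadjusted limma p of 0.05 these lists held 8 members in all, where 5.57% of all genes passed that p. The shares were 18.8% of bipolar, 11.8% of Müller glia, 8.33% of cone, 6.67% of amacrine, 5.26% of rod and 0% of horizontal cell genes. Of the Müller glia genes 15 (88.2%) and of the rod genes 16 (84.2%) had a positive difference, shares no lower than the 80.0% of the ganglion cell list. The short-wavelength cone opsin gene Opn1sw differed by -0.08 (SE 0.09) and the Müller glia gene Rlbp1 by 0.07 (SE 0.09).

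Interferon response and complement genes were higher in Cre-positive retinas in sign, though none passed. Of 27 members 26 had a positive difference, where 53.6% of all genes did, and the median was 0.25. At an unadjusted p of 0.05, 8 were higher and 0 lower (0 passed in limma), against 3.3% of all genes higher. In 8 members every Cre-positive array lay above every Cre-negative one, against 1.29% of all genes. The antiviral sensor gene Oas1a read -4.12, -4.27, -3.50, -4.23 and -4.27 with Cre and -4.76, -4.62, -4.67 and -4.61 without, a difference of 0.59 (SE 0.20). Its other probe differed by 0.15. Complement C4b gave 0.48 (SE 0.16), the interferon-induced Ifi27 0.43 (SE 0.14), and Psmb8, an immunoproteasome subunit gene, 0.34 (SE 0.11).

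One Cre-positive array stood highest. The list mean was -1.41 on Cre-positive replicate 3, -1.92 to -1.81 on the other Cre-positive arrays and -2.06 to -1.97 on Cre-negative arrays. Without replicate 3 the median was 0.16. That array also had the highest mean of 14 pigment epithelium genes, 2.10, against 1.09 to 1.64 on the other Cre-positive and 1.07 to 1.48 on the Cre-negative arrays, and the part of this in the interferon values was not tested. Within slides that did not hold replicate 3, the list median was 0.19, 0.10 and 0.10, against 0.02, -0.01 and 0.00 for all genes. In crushed retinas the list median was 0.20, with 0 calls.

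Glial and immune cell lists had smaller medians than the interferon and complement genes. The list means did not overlap between genotypes for gliosis genes (-1.60 to -1.47 with Cre, -1.73 to -1.63 without). Nor did those of astrocyte and oligodendrocyte markers (0.35 to 0.42 with Cre, 0.29 to 0.32 without). Microglia and macrophage markers were narrowly apart (-1.015 to -0.835 with Cre, -1.084 to -1.018 without). In 5 of 22 gliosis genes every Cre-positive array lay above every Cre-negative one, against 1.29% of all genes. For 20 microglia and macrophage markers the median was 0.13, with 2 higher at an unadjusted p of 0.05 and 0 passing in limma. The share at that p was 10%, against 5.57% of all genes. Aif1, which encodes IBA1, gave 0.29 (SE 0.12) and its groups did not overlap. For 22 gliosis genes the median was 0.09, with 0 passing in limma. At an unadjusted limma p of 0.05 there was 1 (4.55%, against 5.57% of all genes). That gene was Edn2, which encodes endothelin 2, a signal from stressed photoreceptors. Edn2 read 2.69, 2.42, 2.27, 2.52 and 3.04 with Cre and 1.84, 2.01, 2.03 and 1.69 without, and the groups did not overlap. The difference was 0.70 (SE 0.17, limma adjusted p = 0.88), or 0.68, 0.74 and 1.20 within the 3 slides, and 0.22 in crushed retinas. Gfap, the glial intermediate filament gene, gave 0.18 (SE 0.14), and its groups did not overlap. Another Gfap probe, well above background on every uncrushed array, differed by 0.36 (exact permutation p = 0.024). A dimmer one, well above background on 1 Cre-positive and 1 Cre-negative array, differed by -0.03.

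Chaperones and cholesterol synthesis genes had small differences of opposite sign. Of 20 heat shock and endoplasmic reticulum chaperone genes 16 had a negative difference, with a median of -0.10 and 5 lower at an unadjusted p of 0.05 (0 in limma, against 2.27% of all genes lower at that p). Among the 5, Herpud1, of endoplasmic reticulum protein degradation, gave -0.21 (SE 0.07), Hspa1a -0.17 and Dnajb1 -0.15. Within the 3 slides the list median was 0.00, -0.07 and -0.02. Of 22 cholesterol synthesis genes 19 were positive, against 53.6% of all genes, with a median of 0.06. At an unadjusted p of 0.05, 5 were higher (0 in limma), against 3.3% of all genes. The list means did not overlap for either list, narrowly so for the chaperones (-0.42 to -0.31 with Cre, -0.31 to -0.26 without). Among the cholesterol genes, Hsd17b7 gave 0.22 (SE 0.08) and Nsdhl 0.17 (SE 0.06), both of which encode enzymes of the later steps of the pathway. Their other probes, well above background on every uncrushed array, differed by only 0.05 and 0.06 (exact permutation p = 0.61 and 0.44).

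**Figure D4:**
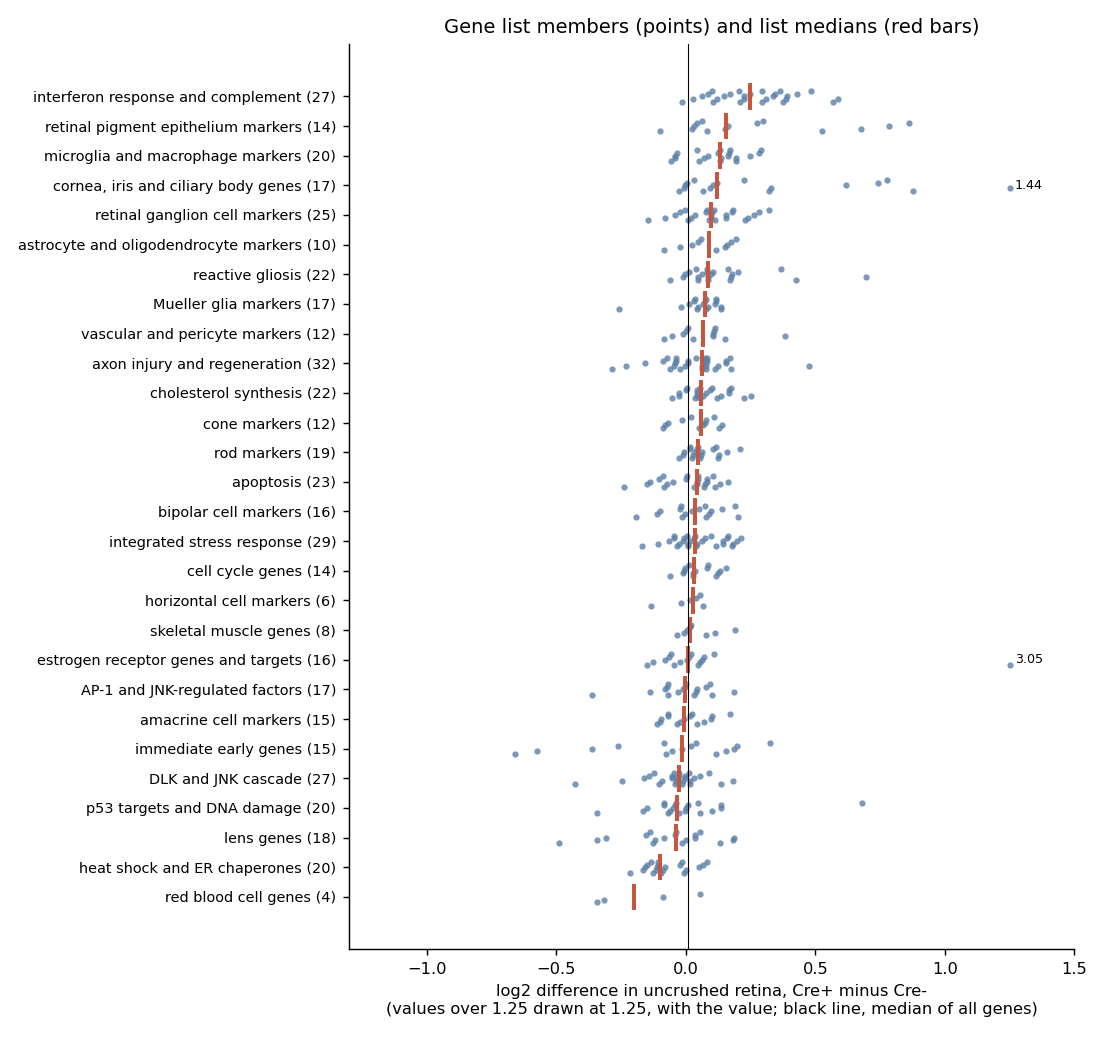
Log2 difference in uncrushed retina for each measured member (points) of 28 gene lists, with list medians as red bars, the number of members in brackets and a black line at the median of all genes, 0.01. Interferon and complement genes have a median of 0.25 and chaperones of -0.10. Esr1 at 3.05 and Krt12 at 1.44 are drawn at the right edge with their values printed beside them.

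**Figure D5:**
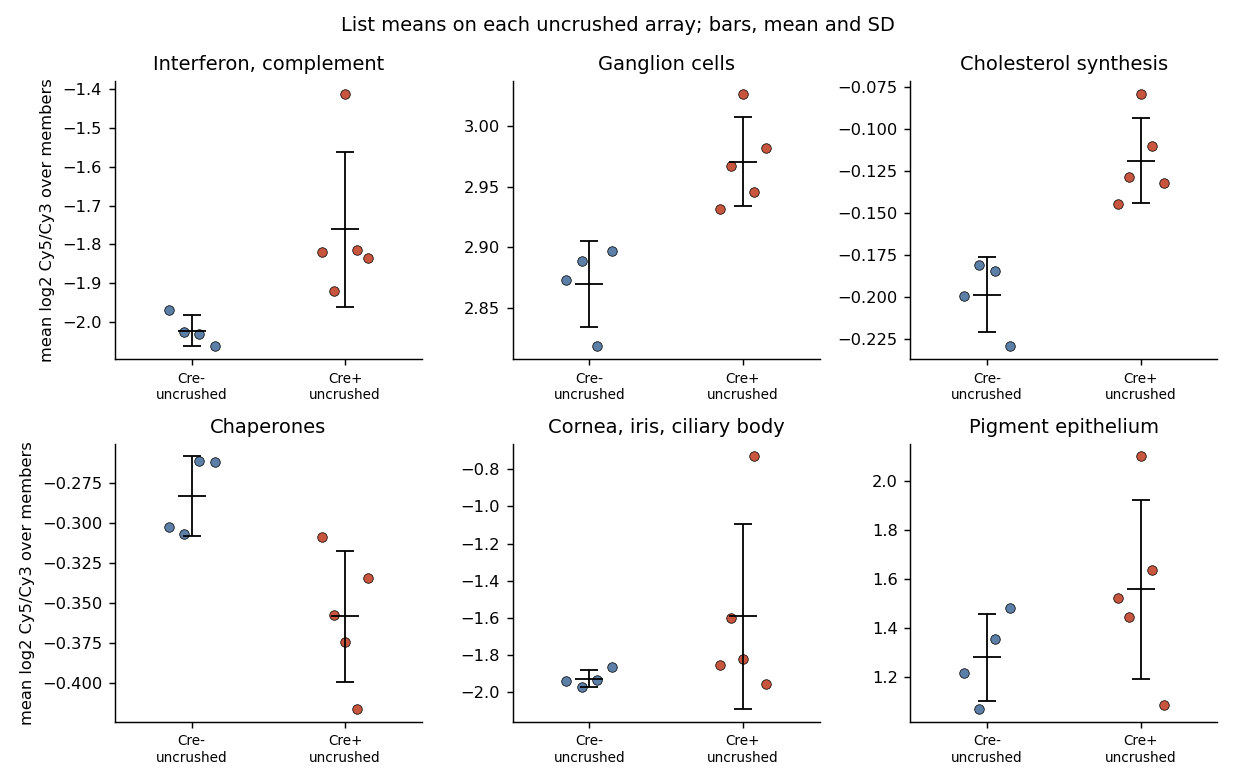
Mean log2 Cy5/Cy3 over the members of 6 lists on each uncrushed array, with bars for mean and SD. Of the lists drawn, the genotypes do not overlap for interferon and complement, ganglion cell, cholesterol and chaperone genes. Cre-positive replicate 3 (interferon, pigment epithelium) and replicate 4 (cornea) lie apart from their group. Some lists not drawn, such as gliosis genes, do not overlap either.

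Genes with the smallest unadjusted p, other than those called, did not pass. Among higher genes were Stat6, a transcription factor of interleukin 4 signalling (0.20, with its other probes at 0.06 and 0.09), Stmn3, a tubulin-binding protein gene of neurons (0.18), the defensin gene Defb9 (0.56), and Gtpbp8 (0.23) and Pcbd2 (0.22). The Enpp3 probe (0.37) was well above background on 1 of 5 Cre-positive and 0 of 4 Cre-negative arrays. Its signal was thus near background in both groups, and no bound is given. Among lower genes were C2cd6 (-0.42), Dio2, which encodes the enzyme that activates thyroid hormone (-0.48), Spry4, an inhibitor of receptor tyrosine kinase signalling (-0.33), the clock gene Per1 (-0.40), Lonrf2 (-0.31), Depp1 (-0.34), Nptx1, a synaptic pentraxin gene (-0.26), Sfxn2 (-0.24) and the growth factor gene Igf2 (-0.19). Their limma adjusted p was 0.78 for C2cd6 and 0.88 for the others. Of the 10 higher genes with the smallest p, which include the called Esr1 and Lmod3, 7 had the same sign in crushed retinas, and Stat6, Stmn3 and Enpp3 did not. Of the 10 lower ones, which include the targeted Map3k12, 9 had the same sign and Nptx1 did not, against 54.1% of all genes. Dio2 was called lower there, by -0.58 (limma adjusted p = 0.021).

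Differences of at least 2-fold were seen in 13 genes with a symbol, and 12 of them were highest on the cornea-rich array. Krt12, the keratin of the corneal epithelium, read 0.28, 3.50, 0.39, 5.54 and 0.06 with Cre and 0.41, 0.47, 0.50 and 0.66 without. Its fitted difference of 1.44 (SE 0.83, limma adjusted p = 0.89) rested on high values in Cre-positive replicates 2 and 4. The surface epithelium genes Krt6b, Emp1, Stfa1, Plet1, Muc4, Cstdc5, Calml3, Slurp1, Upk3bl and Aqp3 and the myeloid gene S100a9 likewise had their highest value on replicate 4, and 0 of the 12 passed in limma. The thirteenth was Esr1.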

How the data were processed

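Retinal RNA (Cy5) and a reference RNA (Cy3) were compared on 2-colour arrays. The deposited scanner files hold median spot and background intensity from Agilent Feature Extraction 10.7.3.1, per the file headers, with no normalization, at a pixel size of 5 micron. The authors' table of log2 ratios names limma per the submitters' processing notes, with settings not given in the sources used here, and served as an alternative, since its values followed the ratios recomputed from the scanner files with slopes of 1 to 1.02.

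The analysis used R 4.3.3 with limma 3.58.1, and files were read with version 1.17.8 of data.table. Ratios came from normexp background correction (offset 50, which shrinks ratios of dim spots) and loess within arrays. Spots of a probe were averaged and each gene was represented by its brightest probe. Of 39429 probes 26581 were paired with a symbol. Probes with Cy5 well above background on at least 3 arrays were kept, giving 25359 genes, 16778 with a symbol. One limma fit of 17 arrays with 4 group means (13 residual and 4.49 prior degrees of freedom) gave two-sided tests, with Benjamini-Hochberg adjustment over all genes. The fit was tested on simulated data. Slide, position, background method and single arrays were varied as alternatives.

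The 28 lists, which share some genes, and the members were chosen with earlier results of these data known. Named were all called genes, the smallest unadjusted p until 10 per direction, up to 4 members per list with the smallest p, 22 fixed genes and neighbours of Map3k12. Other list members, the genes of at least 2-fold difference and the clock genes were named after their values were seen. Coordinates are not printed, as the arrays and the gene table come from different genome builds. Results for some genes are not reported here.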

Additional observations from a re-analysis of the deposited data

Results flagged for a closer look

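Of 136 groups of 4 or 5 arrays checked for a value far from the rest, 5 held one, where chance gives about 1 in 20. In Cre-positive uncrushed retinas Pcbd2 read -0.0943 on replicate 3 against -0.263 to -0.219 on the others, Nptx1 read 0.184 on replicate 5 against 0.428 to 0.51, and Sprr1a read -2.02 on replicate 4 against -3.17 to -2.89. The mean of the interferon and complement genes was -1.41 on replicate 3 against -1.92 to -1.81. In Cre-negative uncrushed retinas Gfap read 0.307 on replicate 2 against 0.421 to 0.437.

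For 14 of the named genes the Cre contrast differed between crushed and uncrushed retinas in limma. The log2 difference of the contrasts, crushed minus uncrushed, was negative for Sprr1a (-2.21, adjusted p = 0.00013), Sox11 (-1.80, 2.8e-06), Ecel1 (-1.39, 0.0021), Atf3 (-1.09, 0.00032), Gdf15 (-1.05, 2.8e-06), Atf5 (-0.951, 0.00089), Slc7a3 (-0.742, 0.0041), S100a10 (-0.74, 0.026), Ddit3 (-0.69, 0.0055) and Mthfd2 (-0.663, 0.0044). It was positive for Isl2 (1.43, limma adjusted p = 6.2e-07), Pou4f2 (1.40, 0.00065), Scn4b (1.39, 1e-05) and Pou4f1 (0.909, 0.0031).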

How the results depend on the processing

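Across 29 alternatives, 2 of them chosen after seeing the data, Map3k12 kept its sign (-0.51 to -0.32, limma adjusted p 0.29 to 1), the smallest size being without Cre-positive replicates 2 and 4 (an added alternative). Esr1 kept its call in the 28 that tested it (1.06 with the mean over its probes to 7.10 with Cy5 alone, limma adjusted p 2.9e-11 to 0.0021). The count of 3 called genes became 1 with a normexp offset of 16, with uncrushed arrays only, with slide as a fixed block, with only slides that hold both groups, and in both added alternatives (uncrushed arrays without Cre-positive replicate 4, and without replicates 2 and 4). It was 0 in limma among probes well above background on all uncrushed arrays, where Esr1 and A_66_P110646 were not tested and 1189 genes had an unadjusted p under 0.05. It was 5 with position as a covariate (3 higher, 2 lower, 2354 genes at an unadjusted p under 0.05): Esr1, Gsn, Mab21l4, Ppp3r1 and A_55_P2011700. Leaving out 1 array gave 1 to 2. With Cy5 alone 2 were higher and 1 lower, so 66.7% of calls were higher in place of 100%. The cause was not tested. For the other 147 named genes 4189 of 4252 values counted as the same, 35 lost a call, 28 moved and 0 reversed a call. The same means that the side of the threshold was kept. An uncalled gene could still change sign if the shift was within the larger group SD. Jun, for example, was positive in 7 of 29 alternatives, all counted as the same. No paired analysis was possible because the labels carry no replicate numbers or shared animals, and only the slide, given above as a block, ties arrays of both genotypes. The number of arrays limits the precision, and dim probes have only bounds or, as for Enpp3, none.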

Other observations

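Because Per1 was among the lower genes with the smallest unadjusted p, 17 genes of the circadian clock were looked at afterwards, so their values are a description with no independent test. Per1 read 1.43, 1.65, 1.52, 1.40 and 1.91 with Cre and 1.96, 2.03, 1.96 and 1.98 without, and the groups did not overlap. Per2 differed by -0.13, Cry2 by -0.20 and Arntl, which encodes the activator BMAL1, by -0.14. Dbp (0.09), Tef (0.01) and Nr1d1 (0.07) had differences of the other sign. In all 9 of the 17 were lower and 8 higher, where 53.6% of all genes had a positive difference. At an unadjusted limma p under 0.05 there were 4, against 5.57% of all genes, and 0 passed in limma. In crushed retinas Per1 differed by -0.34 and Per2 by -0.14, while Cry2 differed by 0.07, Arntl by -0.07 and Dbp by 0.33.

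Of 4 red blood cell genes 3 had a negative difference and 1 (25%) a positive one, where 53.6% of all genes were positive. Hba-a1 gave -0.32 (SE 0.14), Hbb-bt -0.34 (SE 0.16), Alas2 -0.09 and Slc4a1 0.06. Of these, 0 of 4 genes passed in limma, with 2 at an unadjusted p under 0.05 (50%, against 5.57% of all genes). Within the 3 slides that held both genotypes the list median was -0.16, -0.31 and -0.34. For all genes it was 0.02, -0.01 and 0.00.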
